A study of Mus musculus with 11 samples.

Results

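The major urinary protein genes (Mup) and the clade A serpin genes (Serpina) of mouse were followed in whole-liver RNA as 2 families of secreted hepatocyte proteins. Members were the rows of the count table named Mup or Serpina with a number and at most 1 letter, kept at 10 or more counts over the 11 livers. Of 47 such rows among 55414 genes, 45 were kept, 22 Mup and 23 Serpina. Serpina1f had no count and Serpina16 had 4 counts in all, so neither was kept. Mup4, Serpina5 and Serpina9 were kept but too low to be tested, which left 21 Mup and 21 Serpina genes in the tests.

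The livers came from male mice, all of the Clec4f-DTR genotype. In these mice the receptor for diphtheria toxin (DT) is under the Clec4f promoter, a gene of Kupffer cells, the resident macrophages of liver, so that toxin injections remove those cells. All mice were 8 weeks old when the diets began and were on them for 16 weeks. The DT livers (n = 4) were from mice on western diet with alcohol that received serial DT. The saline livers (n = 4) were from mice on the same diet that received serial saline. The chow livers (n = 3) were from mice on normal chow, whose labels name no injections, so diet, alcohol and injections cannot be told apart in a comparison with chow. The labels give whole liver tissue as the source, although their extraction text describes only sorted CD45+ cells, for single-cell sequencing. Albumin mRNA, a hepatocyte transcript, was abundant in all 11 libraries. The labels number replicates without saying that each is a separate animal, so p-values measure only the spread between these samples.

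Major urinary proteins are small lipocalins that hepatocytes secrete in very large amounts and the kidney passes into urine, where they carry volatile pheromones. Their transcription in male liver depends on pulsatile growth hormone acting through STAT5, and also on androgen, thyroid hormone and glucocorticoid. Mup20 encodes darcin, a male pheromone protein. Clade A serpins are plasma protease inhibitors and hormone carriers. Serpina1a to Serpina1e encode the mouse alpha-1-antitrypsins, a group of protease inhibitors, and the Serpina3 genes are the expanded mouse counterpart of antichymotrypsin. Serpina6 and Serpina7 encode the carriers of glucocorticoid and of thyroid hormone.

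Many members are near-identical copies, and what a count of 1 copy means depends on how far its transcript can be told from the others. Coding stretches of 60 bases from the GENCODE M21 transcripts (chromosome 4, GRCm38) are shown because they set the Mup genes that can be read singly apart from those that cannot. Bases are in capitals where they differ from the base that most of the 22 Mup genes carry. The first line holds for Mup1, Mup2, Mup8, Mup9, Mup10, Mup11, Mup12, Mup14, Mup15, Mup18, Mup19 and Mup22, the second also for Mup17 and the last also for Mup21.
Mup1: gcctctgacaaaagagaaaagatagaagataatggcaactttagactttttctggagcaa
Mup13: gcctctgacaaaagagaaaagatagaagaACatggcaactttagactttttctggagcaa
Mup7: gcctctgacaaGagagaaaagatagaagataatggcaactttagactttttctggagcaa
Mup16: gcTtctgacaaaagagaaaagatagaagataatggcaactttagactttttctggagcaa
Mup6: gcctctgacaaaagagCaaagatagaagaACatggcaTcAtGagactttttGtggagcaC
Mup5: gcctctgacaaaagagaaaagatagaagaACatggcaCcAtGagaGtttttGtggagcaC
Mup20: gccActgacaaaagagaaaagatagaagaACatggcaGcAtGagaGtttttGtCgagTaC
Mup3: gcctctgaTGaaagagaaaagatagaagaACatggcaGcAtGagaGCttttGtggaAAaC
The 12 genes of the first line could not be told apart in the stretch, while Mup20 differed from them at 11 bases and Mup3 and Mup21 at 13. Mup7 differed by 1 base.

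Over whole aligned coding sequences, pairs of Mup genes were 82.6% to 100% identical with a median of 96.3%, and Mup9 and Mup18 did not differ at any aligned base. The genes that stand apart, Mup4, Mup6, Mup5, Mup20, Mup3 and Mup21, lie at both ends of the cluster on chromosome 4, and the near-identical copies lie between them. Windows of 100 bases found in no other annotated transcript made up 0% of the windows of Mup19 and Mup22, 2.66% of Mup15, and 12.9% to 44.3% of the other central genes from Mup7 to Mup18. By the same measure Mup3 had 97.8% of its windows to itself, Mup5 98.7%, Mup6 100% and Mup21 95.5%. Mup20 had 61.2%, and all its shared windows were shared with the pseudogene Mup-ps19. A count given to a central Mup gene is therefore uncertain as to copy, and sums over copies are given beside single genes.

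**Figure D1:**
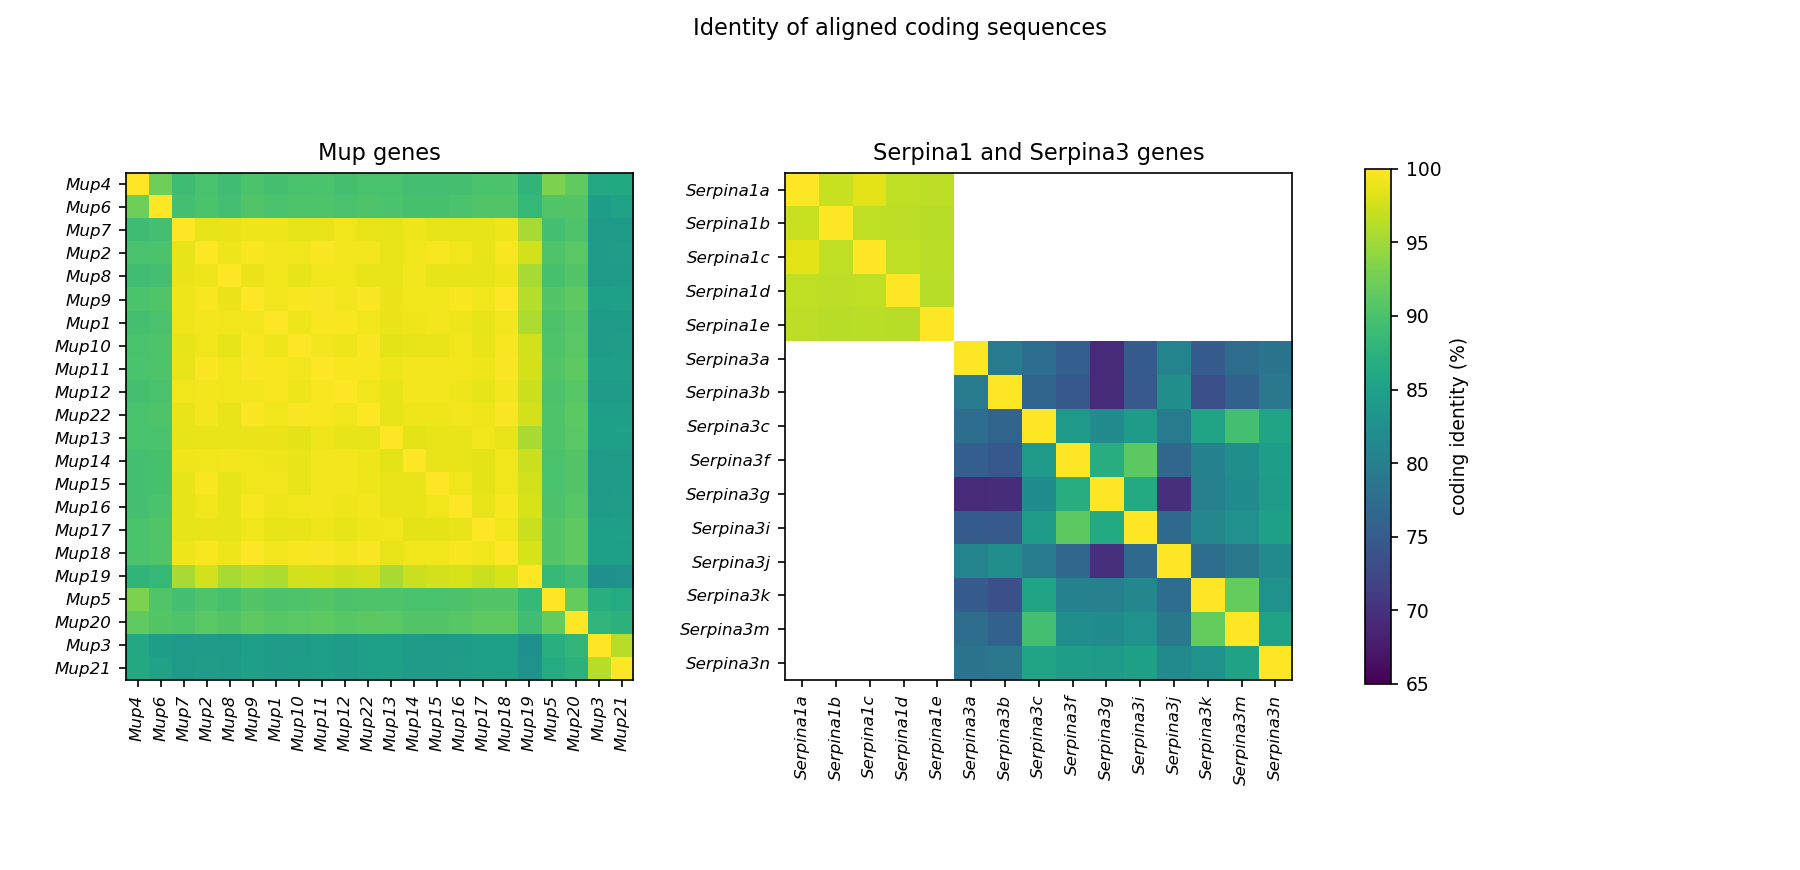
Percent identity of aligned coding sequences (colour, 65 to 100%) between the 22 Mup genes in their order along the cluster (left) and within the Serpina1 and the Serpina3 genes (right). The central Mup genes form a block of near-identity, Mup3 and Mup21 pair with each other at 96.3%, and the 10 Serpina3 genes range from 69.3% to 91.7%.

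The 5 Serpina1 genes were 96.3% to 98.5% identical in coding sequence, yet differ most where the reactive loop that proteases attack is encoded. A stretch of 60 bases near the end of the coding sequence (chromosome 12, GENCODE M21, GRCm38) held 18 of the 86 variable positions among 1308 aligned columns. It is shown because it is where reads of the copies can be told apart. Capitals mark bases other than the most frequent one at that position, and where bases tied, the first in gene order was taken as the most frequent.
Serpina1a: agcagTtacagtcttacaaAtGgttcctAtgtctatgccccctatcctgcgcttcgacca
Serpina1b: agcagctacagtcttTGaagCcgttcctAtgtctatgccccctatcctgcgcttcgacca
Serpina1c: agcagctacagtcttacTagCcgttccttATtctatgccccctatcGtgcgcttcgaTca
Serpina1d: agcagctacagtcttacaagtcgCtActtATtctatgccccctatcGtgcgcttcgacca
Serpina1e: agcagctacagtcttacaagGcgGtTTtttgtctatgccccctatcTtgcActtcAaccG
Serpina1e differed from the most frequent bases at 8 positions and the other 4 copies at 4 to 6. Windows of 100 bases private to a copy made up 85.6% of Serpina1e, 85.2% of Serpina1b, 70.7% of Serpina1d, 57.2% of Serpina1a and 41.5% of Serpina1c. The Serpina3 genes were distinct at that length, with 93.9% to 100% private windows, and Serpina6, Serpina7, Serpina10 and Serpina12 had 100%. Serpina11 had 67.2%, the rest being shared with Gm28577, which had no counts in any liver.

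The bases before the start sites are from RefSeq (GRCm38.p6). They are shown because the printed copies of each family keep the marked letters in common although their RNA levels differ between livers. Further upstream, Mup3 and Mup21 differ from Mup2 and Mup17. Capitals mark the TATATAA box of the Mup genes and the letters GTTAAT in the Serpina1 genes.
Mup2 (chr4:60139877-60139973, minus strand): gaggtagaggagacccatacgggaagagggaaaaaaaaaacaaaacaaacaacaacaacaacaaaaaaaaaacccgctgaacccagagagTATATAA
Mup17 (chr4:61595851-61595947, minus strand): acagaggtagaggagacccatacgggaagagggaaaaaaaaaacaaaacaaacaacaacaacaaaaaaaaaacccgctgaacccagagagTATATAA
Mup3 (chr4:62087322-62087418, minus strand): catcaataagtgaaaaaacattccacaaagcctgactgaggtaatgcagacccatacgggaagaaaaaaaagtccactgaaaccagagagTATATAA
Mup21 (chr4:62150843-62150939, minus strand): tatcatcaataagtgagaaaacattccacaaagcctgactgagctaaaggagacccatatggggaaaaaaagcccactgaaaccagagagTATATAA
Serpina1a (chr12:103863629-103863700, minus strand): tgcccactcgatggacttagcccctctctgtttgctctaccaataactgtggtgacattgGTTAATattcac
Serpina1b (chr12:103738204-103738275, minus strand): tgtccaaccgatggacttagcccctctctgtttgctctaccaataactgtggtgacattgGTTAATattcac
Serpina1e (chr12:103956964-103957035, minus strand): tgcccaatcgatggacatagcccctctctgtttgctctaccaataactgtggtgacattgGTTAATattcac
The window ran from 250 bases before to 50 bases after the start, on either strand. In it, TATATAA was found in 13 of the 14 Mup genes with a promoter entry and in 3.24% of all 32851 promoters. The gene without it was Mup7, and Mup20 had no promoter entry. GTTAAT was found in 5 of 5 Serpina1 promoters and in 7.10% of all. The spaced repeat TTCNNNGAA, of the form that STAT factors bind, was in 0 of 14 Mup promoters, 4 of 17 Serpina promoters and 8.30% of all, and TTGCNNAA, a form found in C/EBP sites, in 0 of 14, 9 of 17 and 10.8%. Each motif was counted separately, also where matches overlapped. A match in this window is a description of letters, not a site in use.

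Libraries held 43995217 to 58089531 counts, and 17038 genes were tested. A count of 3, taken as the lower limit of detection, was 0.0398 to 0.0773 CPM (counts scaled to the library total with TMM factors), a limit that covers counting error only. Albumin mRNA was at 47582 to 80325 CPM over the 11 livers. Clec4f itself was at 6.18 to 15.2 CPM in DT livers, against 43.1 to 49.1 in saline livers and 37.1 to 50.3 in chow livers. With it, 8 of 10 Kupffer cell markers fell in DT against saline livers, against 7.62% of all genes called lower. The 10 Kupffer cell markers summed to 315, 333, 248 and 265 CPM in DT livers 1 to 4. In saline livers they summed to 432 to 585 CPM and in chow livers to 368 to 494 CPM. DT liver 2, which had the highest Clec4f of the DT livers but was below every saline liver in this sum, stood apart from the other DT livers in much of what follows. Cholangiocyte markers (8 of 8) and stellate cell and fibroblast markers (8 of 9) rose in DT against saline livers, against 14.3% of all genes called higher. Summed, the cholangiocyte markers were at 358, 231 and 409 CPM in DT livers 1, 3 and 4 and 28.6 in DT liver 2, against 20.3 to 46.3 in saline livers. Hepatocyte markers summed to 75703 to 103049 CPM in DT livers, 109847 to 120845 in saline livers and 123551 to 149264 in chow livers, with DT liver 2 the highest of its group, and none of these marker lists had a member at 0 throughout. Albumin alone gave 47582 to 61997 CPM of this sum in DT livers. Of the 10 hepatocyte markers, 2 fell in DT against saline livers (Apob and Cyp2e1) and 7 were not called. The other, Ass1, rose (0.79, SE 0.24, edgeR adjusted p = 0.0403). In whole-liver RNA, fewer hepatocytes and less RNA per hepatocyte cannot be told apart, and the part of these shifts in the results below was not tested.

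Mup RNA was far lower in 3 of the 4 DT livers than in saline livers and was at the saline level in DT liver 2. Summed over the 22 genes, Mup stood at 320, 10067, 1633 and 1732 CPM in DT livers 1 to 4, against 7947, 7907, 8803 and 12318 CPM in saline livers 1 to 4 and 20359, 19555 and 16589 CPM in chow livers. DT livers 1, 3 and 4 lay far below every saline liver, and DT liver 2 lay within the saline range, below every chow liver. As a share of all counts the Mup genes took 0.0392%, 0.978%, 0.208% and 0.225% in the DT livers, 0.738% to 1.13% in saline livers and 1.42% to 1.80% in chow livers. In DT liver 1 all 21 tested Mup genes were below the lowest saline liver, 17 of them under 1% of the saline mean, and 6 (Mup1, Mup6, Mup8, Mup9, Mup13 and Mup19) had no count. In DT livers 3 and 4, 20 of 21 were below the saline range, at a median of 0.0295 and 0.0412 of the saline mean. In DT liver 2, 20 of 21 were within the saline range and Mup1 was above it, with a median of 1.06 of the saline mean. Over all genes tested, 35.3%, 25.2%, 34.6% and 34.8% were below the saline range in DT livers 1 to 4.

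**Figure D2:**
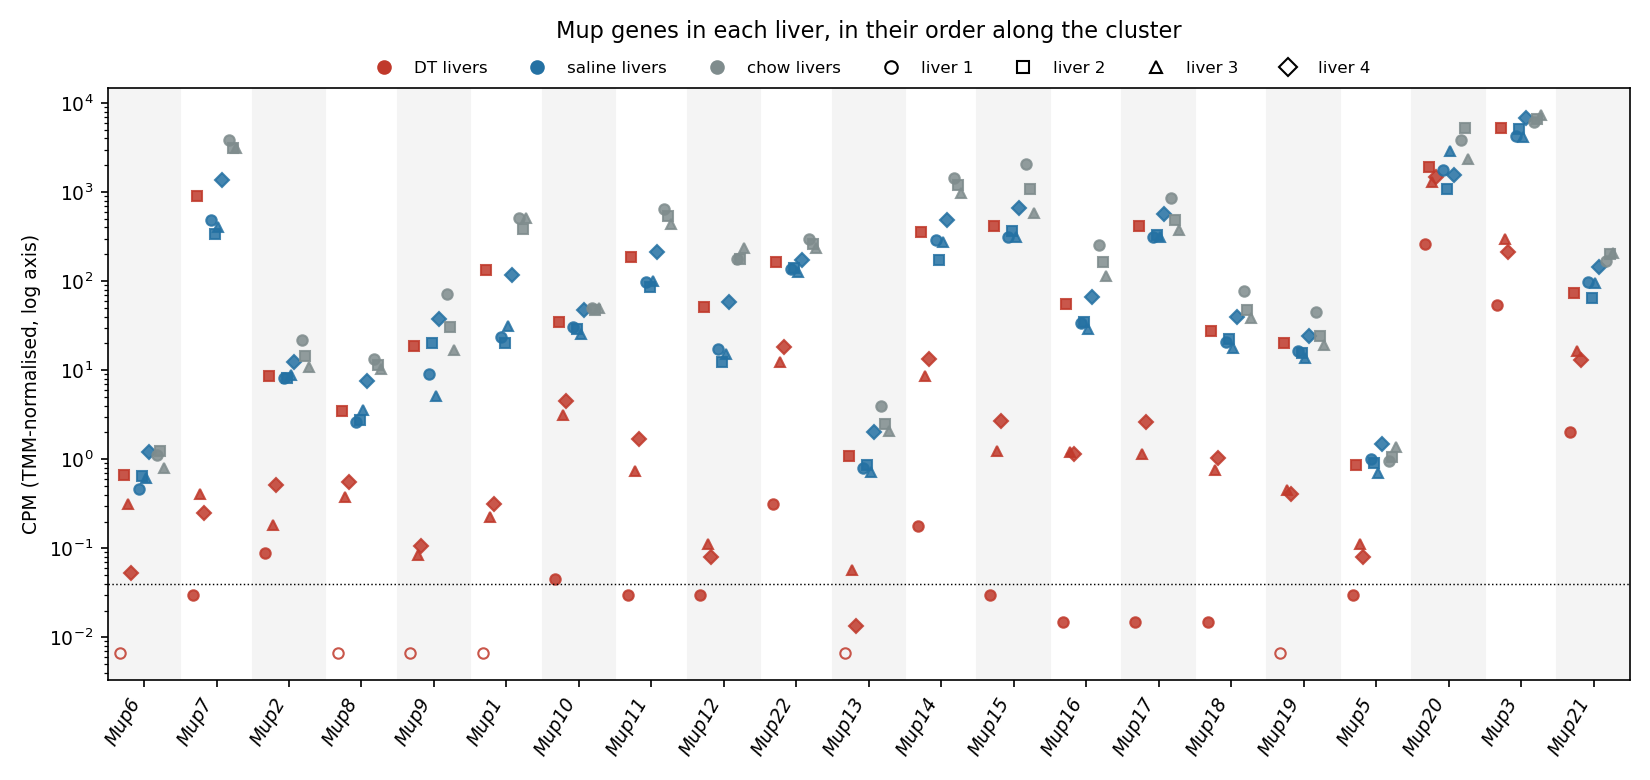
CPM (log axis) of the 21 tested Mup genes in each liver, in cluster order, with DT livers in red, saline livers in blue and chow livers in grey, and marker shape giving the liver number. Open symbols at the bottom mark livers without a count, and the dotted line is the lowest 3-count limit, 0.0398 CPM. DT livers 1, 3 and 4 lie orders of magnitude below the saline livers for many central genes while DT liver 2 sits with the saline livers, and Mup20 keeps the saline level in DT livers 3 and 4.

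The largest differences were among the central copies. Mup7 levels were 0.0299, 900, 0.409 and 0.252 CPM in DT livers 1 to 4, against 484, 338, 410 and 1370 CPM in saline livers, and the value in DT liver 1 was under the 3-count limit. Mup15 was at 0.0299, 412, 1.24 and 2.70 CPM in DT livers, against 315, 362, 316 and 666 CPM in saline livers. Both genes were thus near the limit of detection in DT liver 1 and within the saline range in DT liver 2. Their counts may be those of neighbouring copies, and the 19 genes other than Mup3, Mup20 and Mup21 together gave 0.821, 2785, 31.6 and 47.6 CPM in DT livers, against 1799, 1591, 1687 and 3895 CPM in saline livers. On the mean of log2 values, this sum was 5.60 lower in DT than in saline livers.

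Genes whose sequence is largely their own differed in size. Mup3 was at 54.2, 5288, 296 and 214 CPM in DT livers, against 4289, 5159, 4149 and 6731 CPM in saline livers. Mup21, its closest relative, was at 2.03, 74.0, 16.5 and 13.1 CPM in DT livers, against 96.5, 64.7, 95.5 and 144 CPM in saline livers. For both, DT livers 1, 3 and 4 lay below all saline livers and DT liver 2 lay among them. Mup20, the darcin gene, was at 263, 1920, 1289 and 1458 CPM in DT livers, against 1762, 1092, 2872 and 1549 CPM in saline livers. Only DT liver 1 was below the saline livers for Mup20. Its pseudogene relative Mup-ps19 was counted at 8.63, 48.0, 41.9 and 47.3 CPM in DT livers and 29.8 to 77.8 CPM in saline livers, small values beside those of Mup20.

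The make-up of the Mup counts also differed between livers. Mup20 took 82.1%, 78.9% and 84.2% of Mup counts in DT livers 1, 3 and 4 and 19.1% in DT liver 2, against 12.6% to 32.6% in saline livers and 14% to 26.4% in chow livers. Mup3 took 17.0%, 18.1% and 12.3% in DT livers 1, 3 and 4 and 52.5% in DT liver 2, against 47.1% to 65.2% in saline livers and 29.8% to 44.0% in chow livers. Mup7 took 0.00934%, 0.0251% and 0.0145% in DT livers 1, 3 and 4 and 8.94% in DT liver 2, against 4.27% to 11.1% in saline livers and 16.0% to 19.0% in chow livers. Shares are of counts and are not scaled for transcript length. Per kilobase of exon, the means over DT livers were 1370 CPM per kilobase for Mup3, 1328 for Mup20 and 218 for Mup7. For Mup3 and Mup7 these means rest on DT liver 2, and in DT livers 1, 3 and 4 Mup20 was the highest of the 3 genes. In saline livers they were 4758 for Mup3, 1960 for Mup20 and 630 for Mup7, and in chow livers 6220, 4053 and 3245.

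**Figure D3:**
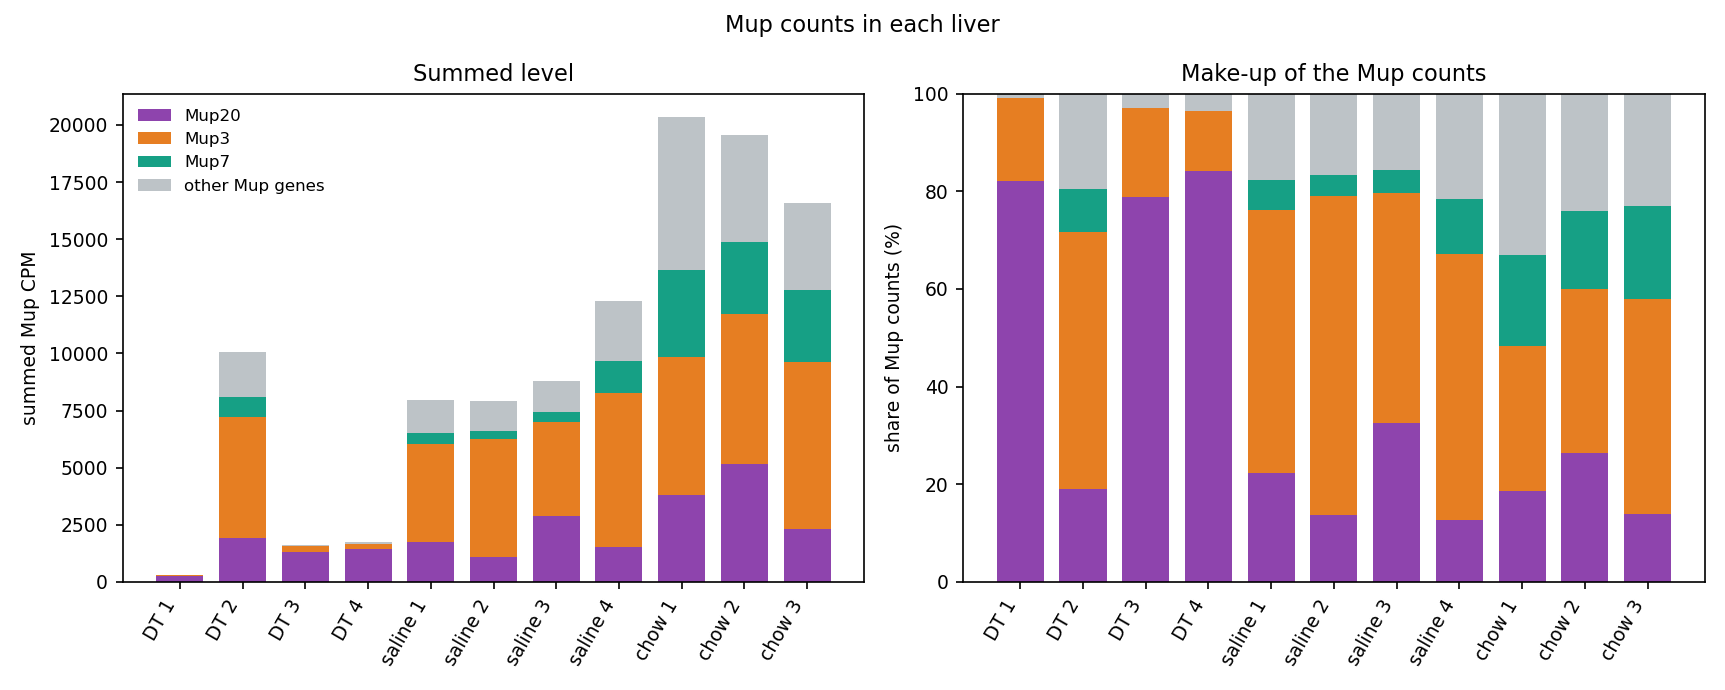
Summed Mup CPM per liver (left) and the share of Mup counts in percent (right), stacked for Mup20, Mup3, Mup7 and the other Mup genes, with DT livers first, then saline and chow livers. The sum reaches 320 CPM in DT liver 1 and 20359 CPM in chow liver 1, and Mup20 takes 78.9% to 84.2% of the Mup counts in DT livers 1, 3 and 4.

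No Mup gene passed the test between DT and saline livers. With edgeR's quasi-likelihood test over all genes, 0 of 21 had a Benjamini-Hochberg adjusted p below 0.05, against 21.9% of all genes tested, and 2 of 21 (Mup5 and Mup21) had an unadjusted p below 0.05, against 37.4% of all genes. DT and saline livers overlapped for all 42 tested members of the 2 families, against 9.33% of all genes with all DT livers higher and 9.97% with all lower. All 21 log2 fold changes were negative, from -2.02 for Mup2 to -0.53 for Mup1, with a median of -1.76, against 0.02 over all genes. These fitted values compare mean levels, which DT liver 2 dominates, and the difference of mean log2 CPM ran from -8.36 for Mup7 to -0.79 for Mup20. Mup21 had a log2 fold change of -1.93 (SE 0.74, edgeR adjusted p = 0.0816) and Mup20 one of -0.56 (SE 0.50, edgeR adjusted p = 0.431). Without DT liver 2, 20 of 21 Mup genes were called lower, all but Mup20, against 17.7% of all genes, and the log2 fold change became -4.76 for Mup3, -11.43 for Mup7 and -0.86 for Mup20. limma-voom called 17 of 21 lower with all livers, against 8.56% of all genes, and DESeq2 called 2 of 21 (Mup5 and Mup21), against 10.3%. On only the groups compared edgeR called 0 of 21 lower, against 4.96%. The count of calls in this comparison thus moved with 1 liver and with the tool. Near-identical copies can share reads, so counts of Mup genes, here and below, are not counts of separate observations. A share of all genes beside them is only a rough measure. Fitted as 1 sum over the copies, Mup had a log2 fold change of -1.43 (SE 0.75) in DT against saline livers. The sum gave -1.03 (SE 0.78) in saline against chow and -2.45 (SE 0.80) in DT against chow livers.

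Between saline and chow livers, every tested Mup gene had a negative log2 fold change, but none passed. The range was from -3.28 for Mup1 to -0.15 for Mup5, with 0 of 21 called by edgeR, against 5.58% of all genes, and 0 of 21 at an unadjusted p below 0.05, against 20.9%. For 10 of 21 the saline livers all lay below the chow livers, against 15.6% of all genes tested. Mup1 was at 23.7, 20.1, 31.6 and 118 CPM in saline livers, against 514, 381 and 514 CPM in chow livers. Mup12 was at 17.2, 12.3, 15.0 and 58.0 CPM in saline livers, against 176, 176 and 235 CPM in chow livers. For both genes the highest saline liver, number 4, was still below the lowest chow liver. Mup3, by contrast, was at 4149 to 6731 CPM in saline livers and 6060 to 7291 CPM in chow livers, and the groups overlapped. Fitted on only the groups compared, so that DT livers did not enter the spread, 10 of 21 were called lower by edgeR, against 9.36% of all genes, and 3 (Mup1, Mup7 and Mup12) were called lower without DT liver 2, against 5.64%. Over all livers limma-voom called 1 (Mup12), against 2.50%, and DESeq2 called 0, against 5.15%.

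Set against chow livers, DT livers had lower Mup levels for all 21 genes, and 3 fell past the threshold, against 8.16% of all genes called lower and 23.0% called in either direction. The unadjusted p was below 0.05 for 11 of 21, against 37.5% of all genes. Mup21 fell by 2.86 on the log2 scale (SE 0.80, edgeR adjusted p = 0.0255), Mup8 by 3.44 (SE 0.97, adjusted p = 0.0269) and Mup20 by 1.61 (SE 0.53, adjusted p = 0.0486). Mup8 was at 0, 3.47, 0.381 and 0.557 CPM in DT livers, against 13.2, 11.4 and 10.4 CPM in chow livers. For 18 of 21 the groups did not overlap, against 14.4% of all genes, the exceptions being Mup9, Mup17 and Mup19, for which DT liver 2 reached the lowest chow liver. The count moved widely between fits. edgeR called 0 on only the groups compared, against 3.20% of all genes, 0 without any 1 of the chow livers or of DT livers 3 and 4, and 21 without DT liver 2, against 18.3%. limma-voom called 19, against 8.07%, and DESeq2 called 4, against 9.53%. Of the alternatives tried, Mup20 passed only with DESeq2 (adjusted p = 0.00925) and without saline liver 3, DT liver 1 or DT liver 2, and its adjusted p reached 0.163 without chow liver 2. The comparisons with chow share those livers, and DT liver 2 was below the lowest chow liver for 18 of 21 Mup genes.

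The alpha-1-antitrypsin genes divided into Serpina1e and the other copies. Serpina1e was at 115, 2252, 874 and 715 CPM in DT livers and 1133, 469, 1004 and 2027 CPM in saline livers, against 8549, 7349 and 8727 CPM in chow livers. Every liver on western diet with alcohol was thus far below every chow liver, and DT and saline livers overlapped. It fell by 3.05 in DT against chow livers (log2, SE 0.73, edgeR adjusted p = 0.0138) and by 2.82 in saline against chow livers (SE 0.72, adjusted p = 0.0437). The second call was lost with limma-voom (adjusted p = 0.101), with no filter on low counts (adjusted p = 0.162) and without any 1 of the saline livers, the chow livers or DT livers 3 and 4, with adjusted p of 0.0554 to 0.124. DT against saline livers gave a log2 fold change of -0.23 (SE 0.65, adjusted p = 0.824). Of all Serpina1 counts, Serpina1e took 1.49%, 14.2%, 13.3% and 11% in DT livers and 3.72% to 13.3% in saline livers, against 31.0% to 36.0% in chow livers.

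Serpina1a to Serpina1d differed less between groups. Summed, they gave 7555, 13578, 5704 and 5796 CPM in DT livers and 11460, 12153, 10804 and 13196 CPM in saline livers, against 15166, 16337 and 16632 CPM in chow livers. DT livers 1, 3 and 4 were the lowest of all livers, DT liver 2 was above every saline liver and the saline livers were all below the chow livers. Between DT and chow livers, Serpina1a fell by 0.99 (SE 0.22, edgeR adjusted p = 0.0105), Serpina1d by 1.14 (SE 0.29, adjusted p = 0.0182) and Serpina1b by 0.82 (SE 0.23, adjusted p = 0.0272). Serpina1c had a log2 fold change of -1.11 (SE 0.42, adjusted p = 0.0750) and was at 974, 3447, 915 and 951 CPM in DT livers, against 2342 to 3066 CPM in saline livers and 3171 to 3529 CPM in chow livers. Of its DT livers, only number 2 reached the other groups. None of the 4 was called between saline and chow livers or between DT and saline livers, where the log2 fold changes ran from -0.73 for Serpina1c to -0.23 for Serpina1a. Without DT liver 2 all 4 were called lower in DT than in saline livers, with Serpina1c at -1.46.

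**Figure D4:**
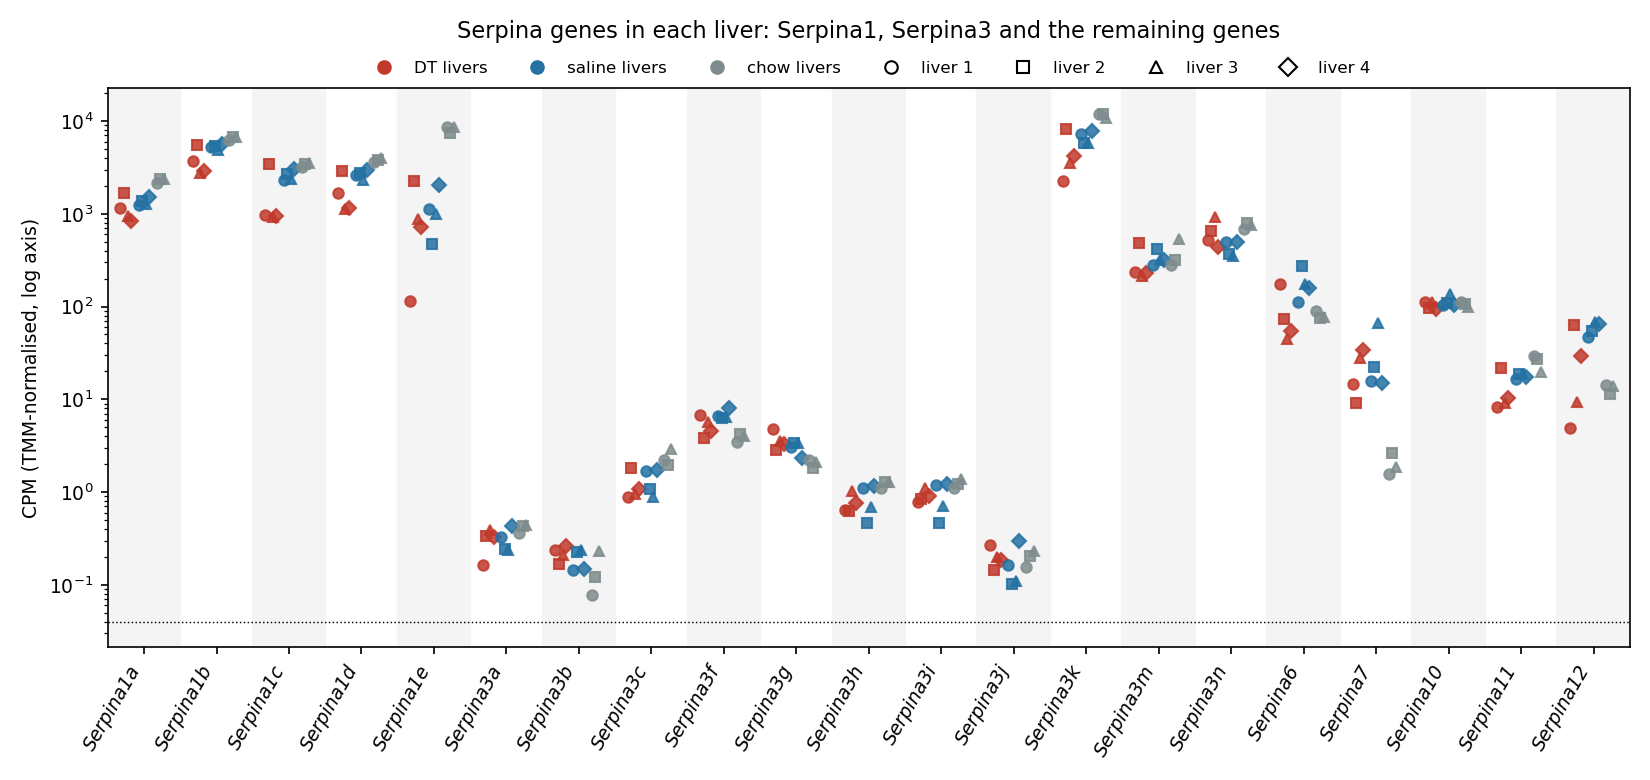
CPM (log axis) of the 21 tested Serpina genes in each liver, with DT livers in red, saline livers in blue and chow livers in grey, and marker shape giving the liver number; the dotted line is the lowest 3-count limit, 0.0398 CPM. Serpina1e is at 115 to 2252 CPM in livers on western diet with alcohol and 7349 to 8727 CPM in chow livers, and Serpina7 is the reverse, with chow livers lowest.

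Among the Serpina3 genes the abundant member, Serpina3k, also known as contrapsin, held most of the counts. Serpina3k was at 2258, 8277, 3530 and 4222 CPM in DT livers and 7255, 5773, 5769 and 7737 CPM in saline livers, against 11897, 12003 and 10866 CPM in chow livers. All livers on western diet with alcohol lay below the chow livers, and DT livers 1, 3 and 4 lay below the saline livers. Serpina3k fell by 1.34 in DT against chow livers (SE 0.35, edgeR adjusted p = 0.0188), while saline against chow gave -0.80 (SE 0.35, adjusted p = 0.210) and DT against saline -0.54 (SE 0.32, adjusted p = 0.247). Serpina3n, an acute-phase inhibitor of granzyme B, had the opposite sign between DT and saline livers. Its levels were 522, 648, 934 and 438 CPM in DT livers and 492, 369, 350 and 498 CPM in saline livers, against 687, 801 and 748 CPM in chow livers. Neither its DT against saline value (0.57, SE 0.22, adjusted p = 0.0850) nor its saline against chow value (-0.80, SE 0.24, adjusted p = 0.0748) passed with edgeR, and DESeq2 called both (adjusted p = 0.0428 and 0.0216).

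Serpina3g and Serpina3f, low in whole liver, had positive log2 fold changes in both comparisons with chow livers. Serpina3g, an intracellular cathepsin inhibitor known from lymphocytes and activated macrophages, was at 4.75, 2.87, 3.57 and 3.31 CPM in DT livers and 3.10, 3.40, 3.35 and 2.32 CPM in saline livers, against 2.24, 1.82 and 2.12 CPM in chow livers. It rose in DT against chow livers by 0.82 (SE 0.23, edgeR adjusted p = 0.0276) and was not called in saline against chow livers (0.56, SE 0.23, adjusted p = 0.189). Serpina3f was at 6.60, 6.37, 6.51 and 8.01 CPM in saline livers, against 3.45, 4.24 and 3.99 CPM in chow livers, a rise of 0.82 (SE 0.21, adjusted p = 0.0434) that no longer passed with limma-voom, total count scaling, no filter on low counts or without any 1 of the saline or chow livers or DT livers 3 and 4 (adjusted p of 0.0514 to 0.179). In DT livers Serpina3f was at 6.84, 3.85, 5.66 and 4.52 CPM, overlapping both other groups. Summed T, B and plasma cell markers were at 3.91 to 10.9 CPM in DT livers, 3.22 to 9.24 CPM in saline livers and 3.06 to 4.22 CPM in chow livers, and their part in these values was not tested. The remaining Serpina3 genes, Serpina3a, Serpina3b, Serpina3c, Serpina3h, Serpina3i, Serpina3j and Serpina3m, were not called in any comparison, and all but Serpina3m (213 to 539 CPM) were under 3 CPM in every liver. Serpina3h is annotated as a pseudogene.

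The genes of the hormone carriers and of vaspin were higher in every saline liver than in any chow liver, and among them Serpina7 passed the test. Serpina7, which lies on chromosome X and encodes thyroxine-binding globulin, was at 14.8, 9.07, 27.9 and 34.0 CPM in DT livers and 15.8, 22.2, 66.4 and 14.9 CPM in saline livers, against 1.55, 2.62 and 1.85 CPM in chow livers. The chow livers lay below all others without overlap. It rose by 3.89 in saline against chow livers (log2, SE 0.65, edgeR adjusted p = 0.00694) and by 3.41 in DT against chow livers (SE 0.64, adjusted p = 0.00579), and DT and saline livers overlapped (-0.48, SE 0.50, adjusted p = 0.515). With limma-voom the saline against chow value no longer passed (adjusted p = 0.0601). Serpina6, which encodes corticosteroid-binding globulin, was at 177, 74.3, 45.1 and 54.2 CPM in DT livers and 112, 272, 174 and 157 CPM in saline livers, against 89.2, 75 and 77.9 CPM in chow livers. The saline livers all lay above the chow livers, and DT livers 2, 3 and 4 lay below the saline livers. Neither difference passed, with 1.15 in saline against chow livers (SE 0.44, adjusted p = 0.156) and -1.03 in DT against saline livers (SE 0.39, adjusted p = 0.0815), of which DESeq2 called the second (adjusted p = 0.0395).

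Serpina12, which encodes vaspin, was at 4.85, 63.2, 9.25 and 29.6 CPM in DT livers and 46.5, 54.2, 67.4 and 64.8 CPM in saline livers, against 14.1, 11.3 and 13.8 CPM in chow livers. Saline livers were all above chow livers (2.15, SE 0.67, edgeR adjusted p = 0.0892), and DT livers 1, 3 and 4 were below the saline livers while DT liver 2 was among them (-1.13, SE 0.58, adjusted p = 0.181). The saline against chow value passed with DESeq2 (adjusted p = 0.0271) and without DT liver 2 (adjusted p = 0.0332), and without that liver so did DT against saline (-2.00, adjusted p = 0.0145). Serpina11 was at 8.31, 21.9, 9.23 and 10.3 CPM in DT livers and 16.7 to 18.9 CPM in saline livers, against 29.5, 27.5 and 19.9 CPM in chow livers, and fell by 1.05 in DT against chow livers (SE 0.29, adjusted p = 0.0238), though DT liver 2 was above the lowest chow liver. Serpina10, the protein Z-dependent inhibitor of factor Xa, differed little, with 93.7 to 113 CPM in DT livers, 103 to 135 CPM in saline livers and 98.1 to 112 CPM in chow livers. Its DT against chow value of -0.03 (SE 0.13, adjusted p = 0.887) reversed to 0.44 (adjusted p = 0.0468) when libraries were scaled by total counts alone, which moved the median of all genes to 0.44. Serpina5 and Serpina9, inhibitors known from other tissues and from germinal-centre B cells, stayed at or below 0.318 CPM, and Mup4 at or below 0.409 CPM.

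Over the Serpina family, DT against saline livers gave 0 of 21 calls with edgeR, against 21.9% of all genes, 4 of 21 at an unadjusted p below 0.05, against 37.4%, and 2 with DESeq2, against 28.8%. limma-voom gave 0, against 18.2%, and 7 were called lower without DT liver 2, against 17.7% lower and 40.3% in either direction. Saline against chow livers gave 3 of 21, with Serpina7 and Serpina3f higher, against 2.45% of all genes called higher, and Serpina1e lower, against 3.13% called lower. On only the groups compared this count was 10, against 20.1% of all genes, it was 0 with limma-voom, against 4.18%, and 1 without any 1 of the saline livers, the chow livers or DT liver 4, and 5 and 7 without DT livers 1 and 2. The Serpina7 call was kept in all these fits except limma-voom. DT against chow livers gave 8 of 21, with 2 higher, against 14.8% of all genes, and 6 lower, against 8.16%. That count was 3, 3 and 4 without chow livers 1, 2 and 3, 4 and 5 without DT livers 3 and 4, 3 on only the groups compared, and 12 without DT liver 2, against 40.3% of all genes. DESeq2 called 10, against 28.4%, and limma-voom 10, against 16.4%. Serpina1a and Serpina7 passed in every alternative tried, and Serpina1e in all but the fit with no filter on low counts (adjusted p = 0.0562). Serpina1b, Serpina1d, Serpina3g, Serpina3k and Serpina11 ceased to pass on only the groups compared and without chow liver 1 or 2, with adjusted p of 0.0529 to 0.106. Median log2 fold changes of the 21 Serpina genes were -0.23, -0.37 and -0.42 in the 3 comparisons, against 0.02, 0.00 and -0.02 over all genes.

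**Figure D5:**
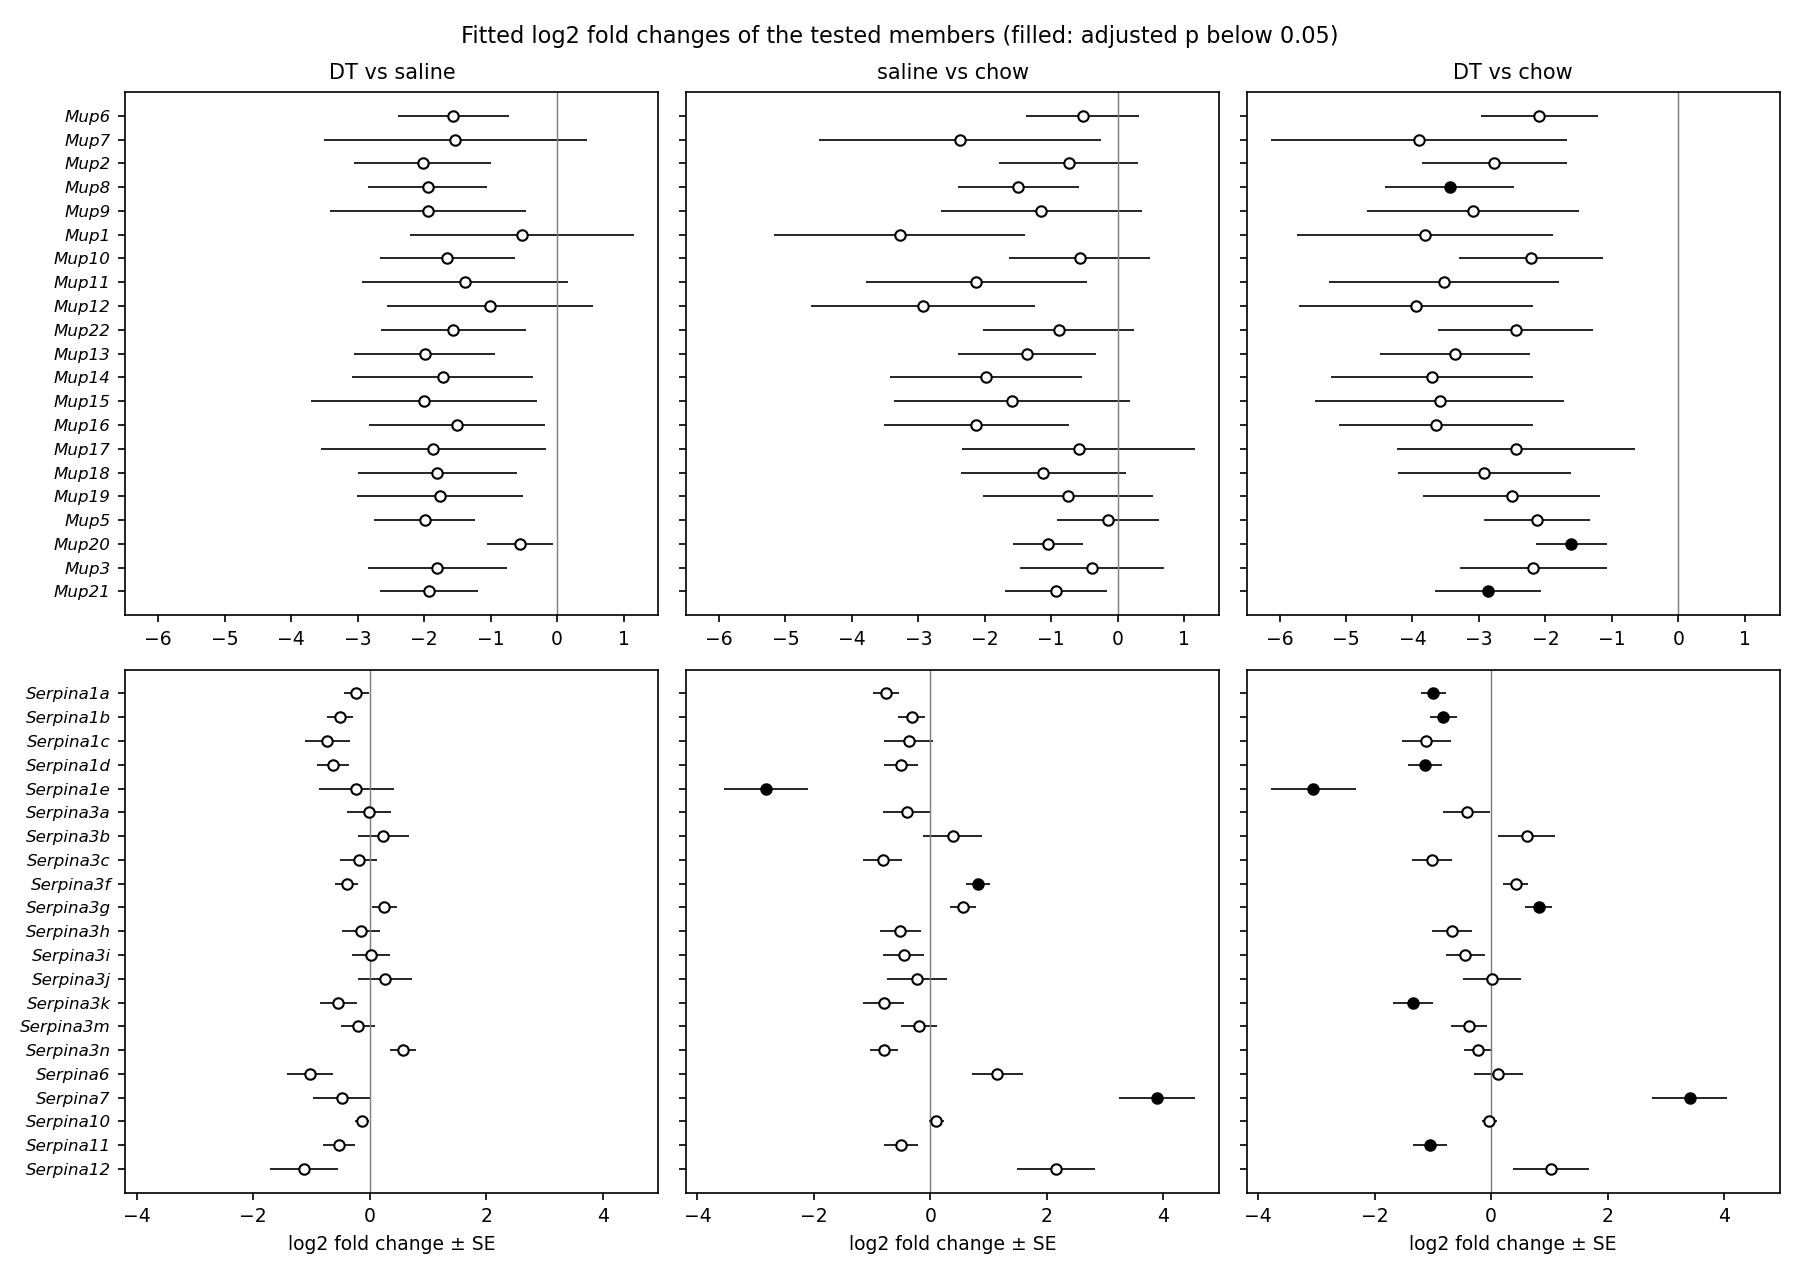
Fitted edgeR log2 fold changes with standard errors (bars, derived from the F statistic) of the tested Mup genes (top) and Serpina genes (bottom). Panels are DT against saline, saline against chow and DT against chow livers, and filled points have an adjusted p below 0.05. All Mup points are below 0 with wide bars in every panel, while Serpina7 stands at 3.89 and 3.41 and Serpina1e at -2.82 and -3.05 in the comparisons with chow.

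Genes known to be under the same hormonal control as the Mup genes were followed as lists. Over all genes, 14.3% were called higher and 7.62% lower in DT against saline livers. Of 16 male-biased hepatocyte genes, 6 fell and none rose in DT against saline livers with edgeR, with a median log2 fold change of -1.24, and 15 fell without DT liver 2, against 17.7% of all genes called lower. Nudt7, a peroxisomal hydrolase, fell by 2.27 (SE 0.41, adjusted p = 0.00678) and Cyp4a12b, a male-specific cytochrome P450, by 1.51 (SE 0.40, adjusted p = 0.0229). In saline against chow livers, 2 of the 16 genes fell and none rose with edgeR, against 3.13% of all genes called lower. The median log2 fold change of the list there was -0.60, against 0.00 over all genes. For Nudt7, however, all saline livers lay above the chow livers (1.21, SE 0.43, adjusted p = 0.133), which was not the order of the Mup genes. Of 14 tested female-biased genes, 6 rose and none fell in DT against saline livers, with and without DT liver 2. They included Cyp2a4 (6.04, SE 1.18, adjusted p = 0.00877), whose reads may be shared with its close copy Cyp2a5. Another was Cux2, a repressor of male-biased genes (4.12, SE 0.85, adjusted p = 0.00943). Cux2 was at 22.8, 4.6, 6.21 and 2.04 CPM in DT livers, against 0.264 to 0.695 CPM in saline livers, but it also fell by 4.62 in saline against chow livers (SE 0.88, adjusted p = 0.0126), so its order over the groups was not that of the Mup genes.

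In the growth hormone and STAT5 list, 3 of 14 genes fell and 2 rose in DT against saline livers. The 2 that rose were Igfbp3 and Cux2, and Cux2 is also counted in the female-biased list above. Ghr, the growth hormone receptor, was at 88.1, 419, 167 and 207 CPM in DT livers, against 500, 617, 558 and 603 CPM in saline livers, and fell by 1.37 (SE 0.36, edgeR adjusted p = 0.0205). In chow livers Ghr was at 323, 344 and 387 CPM, below every saline liver (saline against chow 0.70, SE 0.38, adjusted p = 0.333). Its order over the groups was thus also not that of the Mup genes. Igfals, which encodes a partner of IGF1 in plasma, fell by 1.03 (SE 0.27, adjusted p = 0.0217) and Igf1 by 0.70 (SE 0.23, adjusted p = 0.0465), while Igfbp3 rose by 1.23 (SE 0.31, adjusted p = 0.0196). Stat5a and Stat5b were not called (0.08, SE 0.15, and -0.02, SE 0.17). Of 17 hepatocyte transcription factors, 8 fell in DT against saline livers, among them Ppara, a regulator of fatty acid oxidation (-1.61, SE 0.15, edgeR adjusted p = 0.000871), and Cebpa (-0.96, SE 0.18, adjusted p = 0.00703). For both, all saline livers lay above the chow livers, with Ppara at 0.75 (SE 0.16, adjusted p = 0.0224) and Cebpa at 0.66 (SE 0.19, adjusted p = 0.0686).

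Secreted proteins of related kinds were compared last. Over all genes, 14.3% were called higher and 7.62% lower in DT against saline livers. Without DT liver 2, 3827 of the 16938 genes tested were called higher and 17.7% lower. Of 11 other lipocalins tested, 1 rose and none fell in DT against saline livers, while 1 rose and 4 fell without DT liver 2. The gene that rose with all livers, Lcn2, an iron-siderophore binding protein of injured liver, rose by 2.76 (SE 0.65, edgeR adjusted p = 0.0143). In saline against chow livers 3 of these 11 fell, namely Apom, Orm1 and Orm2, against 3.13% of all genes called lower. Orm2, an acute-phase carrier, fell by 3.13 on the log2 scale (SE 0.65, edgeR adjusted p = 0.0179). Orm2 was at 22.8, 18.2, 32.8 and 13.9 CPM in saline livers, against 220, 333 and 23.7 CPM in chow livers, so the groups overlapped and the difference rests on chow livers 1 and 2. Those livers stood apart from chow liver 3 for the acute-phase gene Saa1 as well, at 2014, 2256 and 141 CPM in chow livers 1 to 3. Of 13 serpins of other clades, 3 rose and none fell in DT against saline livers, and 4 rose and 2 fell without DT liver 2. The smallest p was that of Serpinh1, the collagen chaperone (1.20, SE 0.31, adjusted p = 0.0200). Of 21 abundant secreted hepatocyte proteins tested, 1 fell in DT against saline livers and 14 fell without DT liver 2. In DT against chow livers with all livers 14 fell, against 8.16% of all genes called lower. Of 20 chaperones and degradation factors of the secretory pathway 4 fell and 1 rose in DT against saline livers, of 11 tested proteases that clade A serpins bind 2 fell and 1 rose, and of 12 tested genes of interleukin-6 signalling 1 fell and 2 rose. Without DT liver 2, 10 fell and 2 rose among the chaperones, 5 fell and 2 rose among the proteases, and 1 fell and 5 rose in interleukin-6 signalling. In the list on thyroid hormone and glucocorticoid, 1 of 14 genes rose and 3 fell in DT against saline livers. Those that fell included Thrb (-0.99, SE 0.22, edgeR adjusted p = 0.0122) and Hsd11b1 (-1.14, SE 0.36, adjusted p = 0.0432). The gene that rose, Fkbp5, a target gene of the glucocorticoid receptor, rose by 1.54 (SE 0.38, adjusted p = 0.0177). It fell by 2.77 in saline against chow livers (SE 0.41, adjusted p = 0.00413). Fkbp5 levels were thus lowest in saline livers, the group in which Serpina6 was highest on average, and a link between the 2 genes was not tested.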

How the data were processed

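RNA of 11 whole-liver samples was sequenced by the authors, who deposited raw counts per gene, 1 column per liver. Per the submitters' processing notes, FastQC, STAR, the GRCm39 build and featureCounts were used. Their versions, the annotation, the strand setting, the treatment of reads that map to several copies and whether mates or fragments were counted are not given in the sources used here. Between 77.9% and 82.0% of low counts were even numbers, so counts may be of mates, and then counting errors are larger than the counts imply.

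The counts were tested with edgeR 4.0.16 in R 4.3.3 (quasi-likelihood, robust, TMM factors, genes kept by filterByExpr, all 3 groups in 1 fit with 8 residual degrees of freedom). The common biological coefficient of variation came to 30.1%. Two-sided p-values were given Benjamini-Hochberg adjustment over the 17038 genes tested and a threshold of 0.05. Each SE was derived as the absolute log2 fold change divided by the square root of the F statistic of the test. CPM used TMM factors, and mean log2 values a prior count of 2. DT and saline livers are each in 2 of the 3 comparisons, as are chow livers, so the comparisons are not independent. DESeq2 1.42.0, limma 3.58.1 (voom), other scalings and filters, only the groups compared, summed copies, a replicate block and leaving out each liver were tried. Counts per list without DT liver 2 were added after seeing the data. Coding sequences were aligned with MAFFT 7.526, and shared windows were counted over GENCODE M21 transcripts (Python 3.11.15). Promoters came from RefSeq (GRCm38.p6). These builds differ from that of the counts and were used for names and sequence only. No 2 livers of the same group had matching counts, with a chi-square per gene of 34.5 or more. Livers of different groups were not compared in this way. The main fit was also run on simulated counts with changes put into known genes. Those counts held no liver that stood apart and no reads shared between copies, so they do not test the Mup calls.

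The members and gene lists were chosen with earlier results of these data known. All kept members could be named, and from each other list up to 4 genes with the smallest p in the comparison described and up to 5 that moved the other way. Igf1, Stat5a and Stat5b fall outside that rule and were named after their values were seen. One member of the list of hepatocyte transcription factors is not reported here.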

Additional observations from a re-analysis of the deposited data

Results flagged for a closer look

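In each group of 4 livers the gap between the most extreme liver and its neighbour was set against the group's range of log2 CPM, and 6 of 84 such groups passed Dixon's 95% critical value for 4 values. Chance alone gives about 1 in 20. DT liver 2 was the high liver for Mup12 (0.878 of the range), Serpina1c (0.953) and Serpina3m (0.874). Saline liver 4 was the high liver for Mup2 (0.832), Mup17 (0.917) and Serpina3f (0.841). No explanation was tested.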

How the results depend on the processing

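Over all genes, 3734, 950 and 3919 were called in DT against saline, saline against chow and DT against chow livers. Scaling by total counts gave 5629 (5183 higher, 446 lower) and 6536 (6197 higher, 339 lower) for DT against saline and DT against chow, against 2436 higher and 1298 lower, and 2528 higher and 1391 lower, with TMM, and moved the median of all genes to 0.36 and 0.44. It gave 1 Serpina call in DT against saline livers and turned Serpina10 in DT against chow livers to 0.44. DESeq2 gave 1811 genes in saline against chow livers, 2 Mup and 2 Serpina genes in DT against saline, and 6 Serpina genes in saline against chow. limma-voom gave 17, 1 and 19 Mup genes in the 3 comparisons and 0 Serpina genes in saline against chow. With no filter, 1 Serpina gene (saline against chow) and 1 Mup gene (DT against chow) were called. Only the groups compared gave 2303, 3105 and 2089 genes, 10 Mup and 10 Serpina genes in saline against chow, and 0 Mup and 3 Serpina genes in DT against chow. Leaving out 1 liver gave 1786 to 6824, 287 to 1924 and 1786 to 6834 genes, 0 to 20, 0 to 3 and 0 to 21 Mup genes, and 0 to 7, 1 to 7 and 3 to 12 Serpina genes. Same-numbered livers of different groups had r of -0.16 to 0.18 in 10 pairs, 2 over 0.1, for deviations from group means. Differently numbered pairs were not set beside them, so whether same-numbered livers shared a batch cannot be told. The replicate block gave 559 genes in saline against chow, 2210 in DT against chow and 1 Serpina gene in saline against chow livers, where Serpina1e (adjusted p = 0.103) and Serpina3f (adjusted p = 0.126) were not called. The cause of these shifts was not tested. The counts of single central Mup copies are limited by shared sequence and, in DT liver 1, by depth.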
